A study of Mus musculus with 8 samples.

Results

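The earliest response to tunicamycin was examined in 3T3-L1 adipocytes, fat cells differentiated in culture from a mouse fibroblast line, by setting the array of cells exposed for 4 h against the control array of the same time. The 2 arrays were taken by their labels, which give a treatment and a time, out of 8 in the series, and all 45101 probe sets entered. The other arrays served for the spread and for comparison. At 8 h these were 2 controls and a lone tunicamycin array, and at 12 h a lone control and 2 tunicamycin arrays. Replicates are described as biological in the labels, which give no dose, vehicle or genetic change, and all cells came from the 1 line. With 1 array a side at 4 h, every 4 h value is a single measurement, and the tests assume that these arrays vary like the groups with replicates (controls at 8 h, tunicamycin at 12 h).

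Tunicamycin inhibits DPAGT1, the enzyme that starts the lipid-linked sugar chain used for N-glycosylation, so that new glycoproteins fold poorly in the endoplasmic reticulum (ER). The unfolded protein response answers through 3 sensors of the ER membrane. PERK phosphorylates the initiation factor eIF2alpha, which lowers general translation but raises that of ATF4, and ATF4 drives CHOP and genes of amino acid supply. IRE1 splices the Xbp1 mRNA into the form that encodes an active transcription factor, and ATF6 is cut in the Golgi into another. These factors drive genes for chaperones, for ER-associated degradation (ERAD, the export of misfolded proteins to the proteasome) and for the secretory machinery.

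Intensities are given in normalized units, after quantile normalization of the deposited values. Differences are log2(tunicamycin + 2.96) minus log2(control + 2.96), which understates the change of dim genes. The standard error (SE) and the adjusted p come from limma, adjusted by the Benjamini-Hochberg method over 10916 tested genes, and a gene is said to have risen or fallen at an adjusted p under 0.05. The adipocyte markers were present at 4 h, with 8 of 10 markers measured and a summed intensity of 36516 on the control and 35902 on the tunicamycin array. Preadipocyte and fibroblast markers summed to 35959 and 34486, macrophage markers to 360 and 271, muscle markers to 100 and 85.6 and endothelial markers to 29.5 and 24.2. Pecam1, which marks endothelial cells, and Myog, which marks muscle, were at 0 on all 8 arrays. The tunicamycin array at 4 h stood apart in the control probe sets that report RNA integrity. Its 3' to 5' ratio was 2.81 for beta-actin, against 1.82 on the 4 h control and 1.51 to 1.71 on the other 6 arrays, and 43.5 for pyruvate carboxylase, against 13.1 and 6.74 to 19.8. The GAPDH ratio was 1.11 against 0.936, and that of the transferrin receptor, at 4.72, lay inside the range of the other arrays (3.39 to 6.13). What these ratios contribute to the 4 h differences was not tested, and the array has no partner at 4 h that could replace it.

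**Figure D1:**
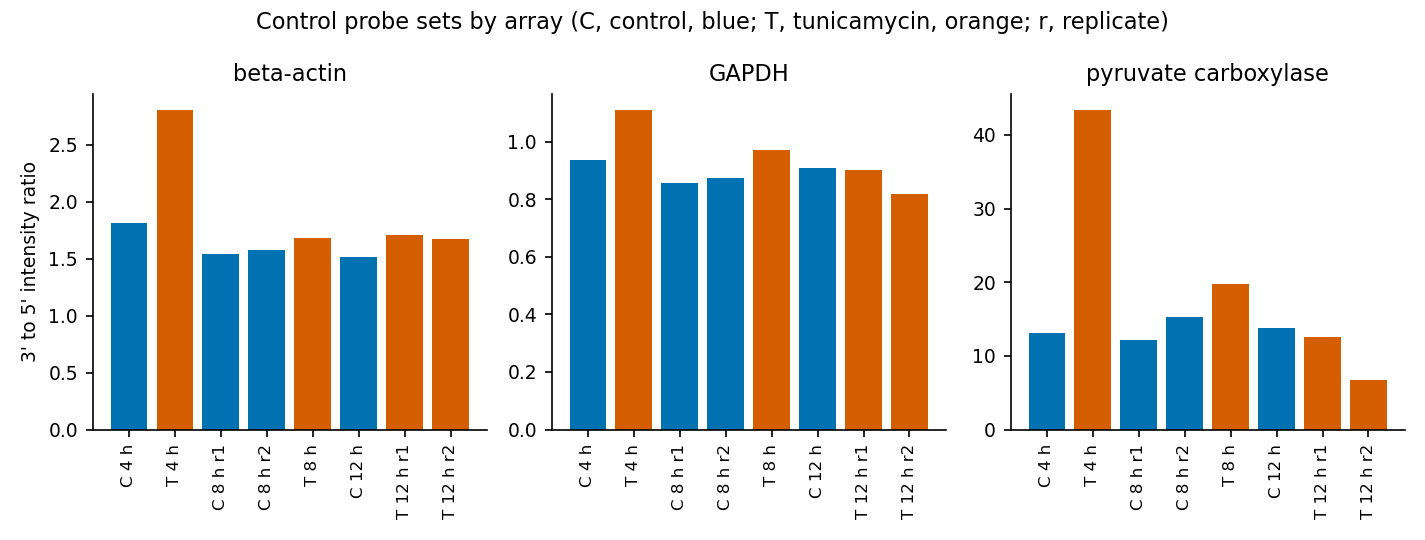
Ratio of 3' to 5' intensity of the control probe sets for beta-actin, GAPDH and pyruvate carboxylase, 1 bar per array, with control arrays in blue and tunicamycin arrays in orange. The 4 h tunicamycin array has the highest bar in each panel, at 2.81, 1.11 and 43.5.

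At 4 h, 39 of the tested genes had risen with tunicamycin (0.357%) and 4 had fallen (0.0366%). At an unadjusted p under 0.05 there were 767 higher and 415 lower. The genes that rose include the effectors of the PERK branch (Ddit3, Chac1, Ppp1r15a, Trib3, Atf4, Atf3), ER chaperones (Hspa5, Creld2, Sdf2l1, Manf, Dnajc3, Pdia6), the ERAD machinery (Herpud1, Syvn1, Sel1l, Edem1) and amino acid transporters (Slc7a1, Slc3a2, Slc38a2). Their log2 differences ran from 0.98 to 3.51, and 36 of the 39 were at least 2-fold higher. In the authors' deposited table of the same comparison, all 39 had a ratio above 1 with p under 0.01. The direction of that table was inferred from the differences computed here, and it is no separate experiment. Over all 45101 probe sets that table has 1015 higher (2.25%) and 853 lower (1.89%) at that p. The number of genes called depended on the model. No gene was called higher when the spread was modelled without its trend with intensity (650 higher at an unadjusted p under 0.05), and none of the 39 was with the deposited scaling kept (adjusted p 0.225 to 0.938). All 39 stayed above 0 under each of the 14 alternatives run, but only other scalings and the averaging of probe sets could change that sign. With a gene's probe sets averaged, dim ones included, the difference shrank over 1.5 times for 9 of the 39. Slc7a1 was then at 0.32, Slc20a1 at 0.08, Plk2 at 0.03, Ggnbp2 at 0.24, Sel1l at 0.59, Dnajc3 at 1.10, Snhg5 at 0.58, Arl14ep at 0.81 and D16Ertd472e at 0.96, none of them called, while Ets2 was at 2.40.

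Counting genes by size alone, 208 of the tested genes were at least 2-fold higher (1.91%) and 150 at least 2-fold lower (1.37%). The same count between replicate arrays was 117 and 86 for the 8 h controls, and 252 and 178 for the 12 h tunicamycin arrays. Among the 7198 genes with a mean intensity of at least 100 over all 8 arrays, 87 were 2-fold higher and 18 lower at 4 h. There the replicate pairs gave 11 and 0 for the controls and 8 and 16 for tunicamycin. The higher side at 4 h held more of these genes than either replicate pair, and the lower side held 18 against 16 in the tunicamycin pair. Because 4 of the arrays are of tunicamycin, a gene dim on the controls can pass this floor through them. Sdf2l1, at 41.0 to 82.2 on the controls, did so. How much of the count on the higher side comes from that was not tested. A further 2530 probe sets above the filter on low values had no single gene symbol, and 155 of them were at least 2-fold higher and 86 at least 2-fold lower.

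**Figure D2:**
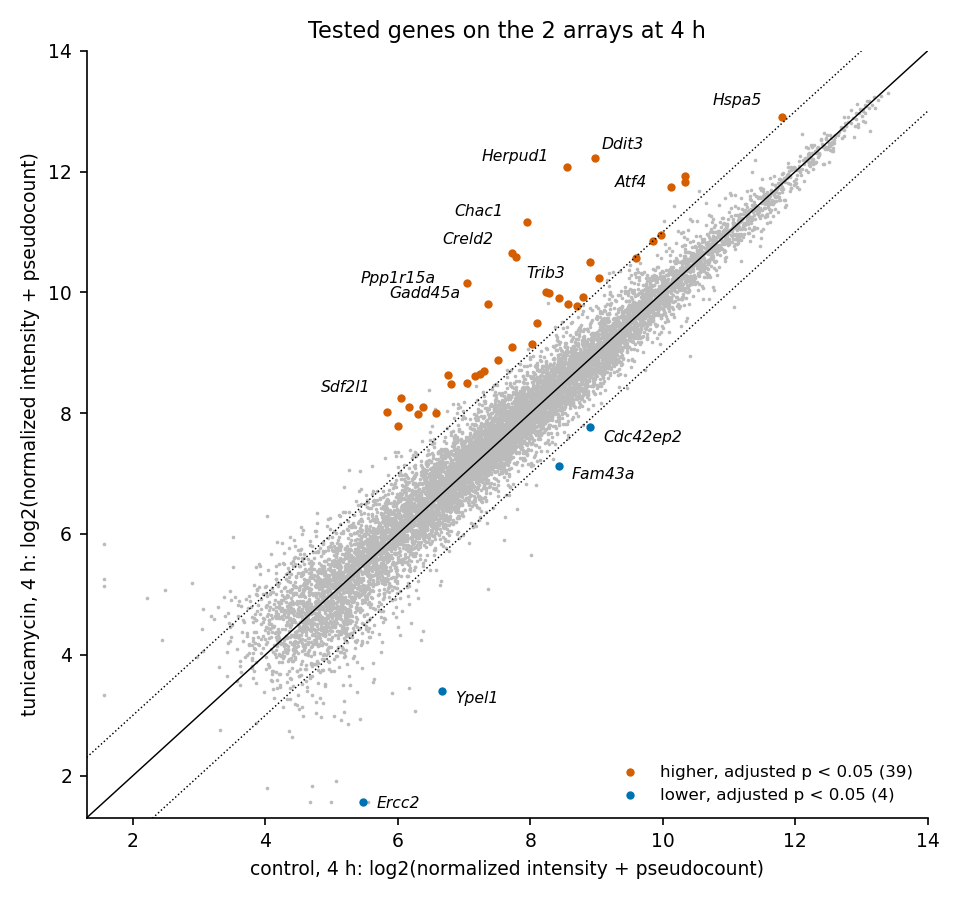
Each of the 10916 tested genes on the control array (horizontal axis) and the tunicamycin array (vertical axis) at 4 h, as log2 of normalized intensity plus the pseudocount of 2.96. The solid line marks equal values and the dotted lines a 2-fold difference, and the 39 genes that rose (orange) lie above the line of equality and the 4 that fell (blue) below it, Ercc2 at 0 on the tunicamycin array.

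The 39 genes that rose were also measured on the 8 h and 12 h arrays. These arrays are not independent of the 4 h calls. All arrays were normalized together, chose the probe sets and the filter, and the later replicates gave the spread. All 39 rose at 8 h, where 9.42% of tested genes did, and 37 rose at 12 h, where 10.1% did. The 8 h tunicamycin array had a 3' to 5' ratio of 1.68 for beta-actin, below the 1.82 of the 4 h control, but 19.8 for pyruvate carboxylase, 0.971 for GAPDH and 5.22 for the transferrin receptor, above the 13.1, 0.936 and 3.40 there. The tests at the 3 times share 1 estimate of the spread per gene, so a gene with a small spread passes more easily at each. By direction alone, 39 of 39 were above 0 at 8 h and 38 at 12 h, where 48.6% and 49.2% of tested genes were. Of the 5824 tested genes above 0 at 4 h, 3633 were above 0 at 8 h and 3457 at 12 h. In 38 of the 39, the 3 tunicamycin arrays at 8 h and 12 h lay above the 3 controls of these times, which held for 21.4% of tested genes. Neither the direction nor this separation is free of the spread, because the 39 were chosen with it. Genes whose later replicates read alike pass more easily at 4 h and also separate more easily later. How much of the excess over 21.4%, or of that in direction, comes from that selection was not tested. Genes with several probe sets gave the following: for 23 of the 43 called genes, 36 further probe sets lay above the filter, and 35 moved the same way. The exception was a probe set of Sel1l that read 111 on the control and 82.9 on the tunicamycin array. Those counted as moving the same way include a probe set of Ggnbp2 that hardly differed, at 20.96 and 21.20. All were read on the same 2 arrays, and the share that moved the same way over all tested genes was not computed. Probe sets below the filter, which moved in both directions, were not counted.

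The PERK branch held several of the largest changes. Ddit3, which encodes the transcription factor CHOP, read 501 on the control and 4781 on the tunicamycin array at 4 h (log2 difference 3.25, SE 0.132, adjusted p = 3.1e-05). The controls at 8 h and 12 h read 721 to 794 and the other tunicamycin arrays 6627 to 6986, so the groups were far apart at each time. Chac1, an enzyme that degrades glutathione, went from 244 to 2294 (3.22, SE 0.189, adjusted p = 0.000193). Ppp1r15a encodes GADD34, the phosphatase subunit that reverses eIF2alpha phosphorylation, and went from 129 to 1134 (3.11, SE 0.224, adjusted p = 0.000831). Trib3, a pseudokinase induced by ATF4 and CHOP, went from 218 to 1529 (2.80, SE 0.154). Gadd45a, a growth arrest gene, went from 162 to 894 (2.44, SE 0.222). Atf4 itself went from 1114 to 3434 (1.62, SE 0.146, adjusted p = 0.00348), and Atf3, a related factor, from 76.3 to 252 (1.68, SE 0.233, adjusted p = 0.0308). Of the 26 tested ATF4 and CHOP stress response genes, 6 had risen, where 0.357% of all tested genes had. They were Chac1, Ppp1r15a, Trib3, Gadd45a, Dnajc3 and Atf3. None had fallen, and the median was 0.54 against 0.03 over all tested genes. Ddit3 and Atf4 are counted in the sensor and transcription factor list instead. Dnajc3 is counted among the chaperones too, and Atf3 in other lists. With the deposited scaling kept, the median of all tested genes was -0.51 and that of these 26 was -0.01, so list medians are read against all genes. Cebpb, a dimerization partner of CHOP, was at 0.30 and did not pass (adjusted p = 0.701). Fgf21, a stress hormone gene, was below the filter, at 0 on the control and 2.70 on the tunicamycin array.

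Of the genes for amino acid supply, which ATF4 is known to drive, 3 transporter genes had risen at 4 h. Slc7a1, the cationic amino acid transporter, went from 300 to 1022 (log2 difference 1.76, SE 0.257, adjusted p = 0.0347). Slc3a2, the heavy chain of several transporters, went from 1293 to 3637 (1.49, SE 0.14), and Slc38a2, the neutral amino acid transporter SNAT2, from 1002 to 1978 (0.98, SE 0.151). These were the 3 that rose among 26 tested genes of amino acid synthesis and transport, whose median was 0.49. Asns, asparagine synthetase, read 2183 and 3139, at 0.52 (adjusted p = 0.271). No gene of the cytosolic aminoacyl-tRNA synthetase list had risen among 21 tested at 4 h, and 15 had at 8 h. At 4 h 18 of them were above 0, where 53.4% of all tested genes were, and the median was 0.30. The shares of all tested genes that had risen were 0.357% at 4 h and 9.42% at 8 h.

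Among the ER chaperones and folding enzymes, 6 of the 35 tested had risen at 4 h, where 0.357% of all tested genes had. None had fallen, and the median was 0.46. At 8 h 24 had risen and at 12 h 29, where 9.42% and 10.1% of all tested genes had, with medians of 1.11 and 1.40. With the deposited scaling kept the 4 h median was -0.08, still 0.43 above that of all genes. Hspa5, which encodes BiP, the main chaperone of the ER lumen, read 3578 on the control and 7639 on the tunicamycin array at 4 h (1.09, SE 0.121, adjusted p = 0.00971). The authors' deposited table gives a ratio of 2.25 for it. All 4 controls lay between 3259 and 3650 and the later tunicamycin arrays between 9240 and 10069. Creld2, an ER-resident chaperone-like protein, went from 209 to 1603 (2.92, SE 0.142, adjusted p = 6.82e-05), and Sdf2l1, a partner of ER DnaJ proteins, from 63 to 301 (2.20, SE 0.248, adjusted p = 0.0103). Dnajc3, a BiP cofactor, went from 308 to 1018 (1.72), Manf, a secreted and ER-held protein that binds BiP, from 1294 to 3906 (1.59), and Pdia6, a protein disulfide isomerase, from 767 to 1520 (0.98). Dnajb9, another BiP cofactor, read 1030 and 2328 (1.17, adjusted p = 0.0566) and Hsp90b1, the ER form of HSP90, 2673 and 4665 (0.80, adjusted p = 0.0556). Neither passed at 4 h, and both did at 8 h.

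ERAD was represented by Herpud1, the gene with the largest difference among those that rose. It encodes a membrane protein of the degradation complex and went from 374 to 4304 (3.51, SE 0.148, adjusted p = 3.1e-05). The authors' deposited table gives a ratio of 12.1. Syvn1, the ubiquitin ligase HRD1, went from 476 to 1455 (1.61, SE 0.167, adjusted p = 0.00767), its partner Sel1l from 343 to 957 (1.47, SE 0.157, adjusted p = 0.00839), and Edem1, a lectin-like factor that passes misfolded glycoproteins to the ligase, from 377 to 895 (1.24, SE 0.194, adjusted p = 0.0462). These 4 were all that had risen of 30 tested ERAD genes, where 0.357% of all tested genes had. The median of the list was 0.20. The other 26 did not pass and ran from -0.49 for Rnf5 to 0.76 for Selenos.

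None of the genes for the sensors passed the test at 4 h. Ern1, which encodes IRE1alpha, read 63.1 and 153 (1.24, adjusted p = 0.143), Atf6 87.4 and 145 (0.71, adjusted p = 0.23), and Eif2ak3, which encodes PERK, 201 and 298 (0.57, adjusted p = 0.324). Xbp1 read 2611 and 4057 (0.64, adjusted p = 0.0958), a signal that does not separate spliced from unspliced mRNA. Xbp1 did not pass either, and each of these 4 had risen at 8 h. Among 25 tested genes of the sensor and transcription factor list, 3 had risen (Ddit3, Atf3 and Atf4), with a median of 0.39. Of 17 tested reported substrates of IRE1-dependent decay, none passed, where 0.0366% of all tested genes had fallen. There were 15 below 0, as were 5086 of the 10916 tested genes, and the median was -0.08. The enzyme tunicamycin inhibits, Dpagt1, read 111 and 114 (0.04, adjusted p = 0.982), and none of 43 tested N-glycosylation genes passed, with a median of 0.03. Of the genes for translocation into the ER and transport to the Golgi, none of 52 tested passed (median 0.06), and 32 of them rose at 8 h, against 0.357% and 9.42% of all tested genes at these times.

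**Figure D3:**
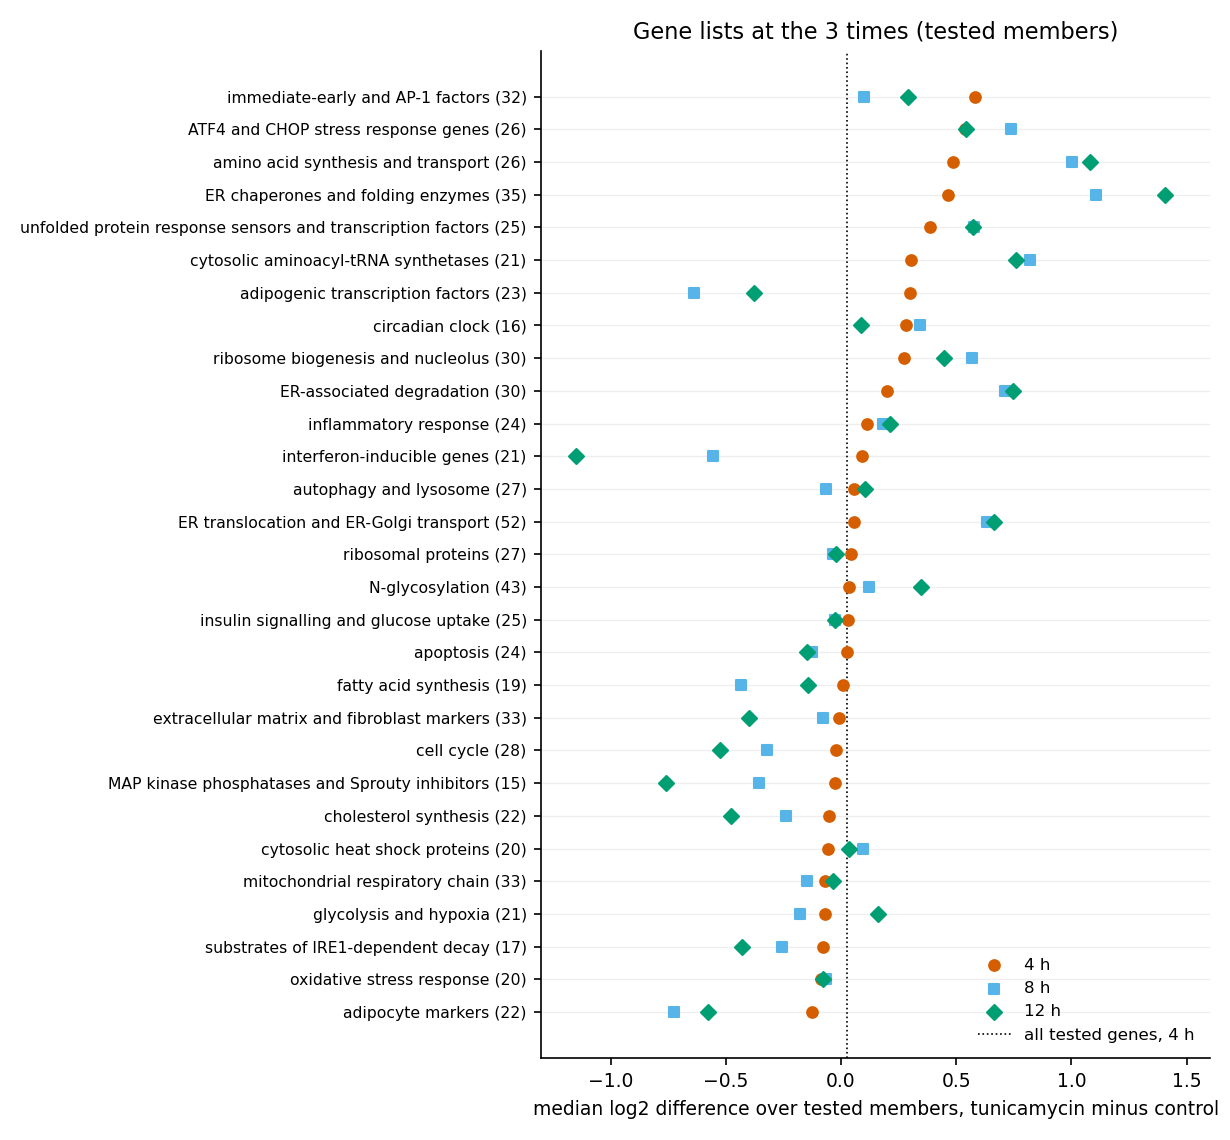
Median log2 difference, tunicamycin minus control, over the tested members of each of the 29 gene lists at 4 h (circles), 8 h (squares) and 12 h (diamonds), with the number of tested members in brackets and the 4 h median of all tested genes as a dotted line. At 4 h the immediate-early, ATF4 and CHOP, amino acid and ER chaperone lists lie highest, at 0.58, 0.54, 0.49 and 0.46, and the adipocyte markers lowest, at -0.12.

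Promoters of 6 genes that rose are shown as examples of windows with a known binding sequence of the response, Hspa5, Creld2 and Dnajc3 for the ER stress response element, Herpud1 for its variant, and Chac1 and Trib3 for the ATF4 core. In mouse and human, ATF6 and XBP1 bind the ER stress response element, in which CCAAT and CCACG are held 9 bases apart, and its variant II, in which ATTGG is followed by any 1 base and CCACG. ATF4 with a C/EBP partner binds a composite site with the core TGATGNAA. The RefSeq windows of 250 bases before to 50 after the start (GRCm38.p6) were searched on both strands, and 35 of the 39 genes that rose had one. The capitals mark the motif matched, read on the gene's own strand, so a match on the opposite strand appears as its reverse complement.
Hspa5, chr2:34771840-34772139, plus strand: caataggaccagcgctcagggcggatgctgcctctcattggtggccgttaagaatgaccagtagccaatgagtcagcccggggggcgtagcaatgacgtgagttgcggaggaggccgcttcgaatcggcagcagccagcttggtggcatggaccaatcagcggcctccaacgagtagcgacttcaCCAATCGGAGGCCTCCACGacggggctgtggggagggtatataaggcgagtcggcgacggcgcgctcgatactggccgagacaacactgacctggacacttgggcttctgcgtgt
Creld2, chr15:88819396-88819695, plus strand: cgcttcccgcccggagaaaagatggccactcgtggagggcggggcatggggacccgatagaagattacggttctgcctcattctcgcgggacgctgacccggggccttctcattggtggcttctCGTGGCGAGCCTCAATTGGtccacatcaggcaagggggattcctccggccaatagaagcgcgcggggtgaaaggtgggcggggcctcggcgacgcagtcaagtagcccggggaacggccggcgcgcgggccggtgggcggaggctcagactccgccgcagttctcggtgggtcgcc
Dnajc3, chr14:118937682-118937981, plus strand: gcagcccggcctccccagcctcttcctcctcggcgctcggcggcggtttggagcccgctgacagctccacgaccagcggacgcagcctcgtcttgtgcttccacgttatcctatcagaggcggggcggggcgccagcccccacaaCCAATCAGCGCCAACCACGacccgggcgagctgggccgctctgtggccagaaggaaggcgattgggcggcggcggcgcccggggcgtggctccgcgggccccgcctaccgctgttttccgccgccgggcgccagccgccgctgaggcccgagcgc
Herpud1, chr8:94386179-94386478, plus strand: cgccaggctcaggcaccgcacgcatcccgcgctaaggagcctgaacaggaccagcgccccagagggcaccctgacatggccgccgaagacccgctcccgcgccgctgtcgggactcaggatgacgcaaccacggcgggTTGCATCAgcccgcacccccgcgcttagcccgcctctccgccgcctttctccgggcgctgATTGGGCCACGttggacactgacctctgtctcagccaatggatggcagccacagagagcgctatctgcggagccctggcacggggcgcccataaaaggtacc
Chac1, chr2:119350992-119351291, plus strand: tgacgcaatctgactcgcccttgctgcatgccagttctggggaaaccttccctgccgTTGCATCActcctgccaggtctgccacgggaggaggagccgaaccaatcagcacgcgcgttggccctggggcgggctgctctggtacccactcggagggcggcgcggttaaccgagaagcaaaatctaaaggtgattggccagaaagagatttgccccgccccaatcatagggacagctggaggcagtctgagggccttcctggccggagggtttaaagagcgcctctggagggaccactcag
Trib3, chr2:152344011-152344310, minus strand: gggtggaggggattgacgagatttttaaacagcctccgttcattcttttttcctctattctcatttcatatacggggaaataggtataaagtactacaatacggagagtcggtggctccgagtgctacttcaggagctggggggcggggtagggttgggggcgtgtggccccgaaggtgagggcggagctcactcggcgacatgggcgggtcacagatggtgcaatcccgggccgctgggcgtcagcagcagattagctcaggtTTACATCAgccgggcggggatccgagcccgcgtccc
The full element was found in 5 of the 35 (Creld2, Dnajc3, Hspa5, Pdia6 and Syvn1), against 0.146% of 8878 tested genes with a window and 0.119% of all 32851 windows. The variant was found in Herpud1, against 0.0901% of tested genes and 0.0365% of windows. The C/EBP-ATF core was found in 6 (Apobec1, Arl14ep, Atf3, Chac1, Herpud1 and Trib3), against 2.61% of tested genes and 3.97% of windows. The unfolded protein response element TGACGTGG was found in none of the 35, against 1.09% of tested genes and 0.676% of windows. These are matches of letters in a window, and binding was not measured.

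Immediate-early and AP-1 factors, which answer many stimuli within minutes to hours, had the highest median of the 29 lists at 4 h. It was 0.58, with 25 of 32 tested members above 0 (53.4% of all tested genes were) 7 at least 2-fold higher and 1 at least 2-fold lower, and it was 0.10 at 8 h and 0.29 at 12 h. The lower one was Nr4a2, a nuclear receptor gene, which read 78.6 and 16.1 (-2.10, adjusted p = 0.097) and was chosen after its value was seen. Only Atf3 and Id3, an inhibitor of basic helix-loop-helix factors, passed the test, where 0.357% of all tested genes had risen. Klf4 and Nr4a1, given below, lie outside the rule by which genes were named. So do Klf6 at 1.56 and Bcl6 at 1.24, which did not pass either. Id3 went from 208 to 543 (1.37, SE 0.191, adjusted p = 0.0308). Klf4, a zinc finger factor, read 90.9 and 266 (1.52, adjusted p = 0.0531), Egr1 783 and 1576 (1.01, adjusted p = 0.18), Fos 78.9 and 145 (0.85, adjusted p = 0.641) and Jun 193 and 210 (0.12, adjusted p = 0.919). Nr4a1, a nuclear receptor of early responses, read 236 and 437 at 4 h (0.88) and was at -0.69 at 8 h, and its effect differed between times (limma F test, adjusted p = 0.0478). Among inflammatory genes, the chemokine gene Cxcl1 had risen from 180 to 469 (1.37, SE 0.191, adjusted p = 0.0308), as 1 of 24 tested. Il6 read 24.5 and 78.3 (1.56, SE 0.401, adjusted p = 0.181). Nfil3, a repressor in the circadian clock, had risen from 105 to 392 (1.88, SE 0.237, adjusted p = 0.0212), as 1 of 16 tested clock genes.

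Of the 39 genes, 16 belonged to none of the lists. H2bc18, a histone H2B gene, went from 54.1 to 256 (2.18, SE 0.223, adjusted p = 0.00718), and its probe set may also hybridise to near-identical histone transcripts. Piga, the catalytic subunit of the first step of GPI anchor synthesis, went from 68.5 to 271 (1.94, SE 0.304, adjusted p = 0.0462). Siah2, a ubiquitin ligase, went from 61.2 to 218 (1.78, SE 0.22), and D16Ertd472e from 80.7 to 271 (1.71, SE 0.212). The following genes lie outside the rule by which genes were named and are given to complete the set, after their values were seen. Apobec1, the RNA-editing deaminase, was at 1.68, the kinase gene Plk2 at 1.45, the phosphate transporter gene Slc20a1 at 1.45, Ficd, which attaches AMP to BiP, at 1.42, Zfp9 at 1.41, the phosphoinositide phosphatase gene Mtmr4 at 1.40 and Arl14ep at 1.39. Ets2, a transcription factor gene, was at 1.20, Ggnbp2 at 1.12, Nktr at 1.12, and the small nucleolar RNA host genes Snhg5 and Zfas1 at 1.07 and 0.997.

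The genes that fell at 4 h were few and less steady. Fam43a read 341 on the control and 136 on the tunicamycin array (-1.31, SE 0.189, adjusted p = 0.0344), and had fallen at 8 h and 12 h too. Cdc42ep2, an effector of the GTPase CDC42, read 474 and 216 (-1.13, SE 0.174, adjusted p = 0.0457), and had fallen at 8 h but was at -0.18 at 12 h. For both, the authors' deposited table gives a ratio below 1 with p under 0.01. Ypel1 read 98.8 and 7.63 (-3.27, SE 0.359, adjusted p = 0.00971), while the other tunicamycin arrays read 38.6 to 42.7 and the other controls 52.2 to 82.9. The authors' deposited table gives it a ratio of 0.71 with p = 0.442. Ercc2, outside the naming rule, read 41.6 on the control and is listed at 0 on the tunicamycin array, so no fold is given, and its ratio in the authors' deposited table is 0.73 with p = 0.784. In all, 8 tested genes were at 0 on 1 of the 4 h arrays and 14 were below the pseudocount.

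Of the 22 tested adipocyte markers, none had fallen at 4 h, when 0.0366% of all tested genes had. There were 18 below 0, as were 5086 of the 10916 tested genes, and the median was -0.12. At 8 h 12 had fallen, where 8.95% of all tested genes had. In such bulk samples, fewer adipocytes and less RNA per cell cannot be told apart. Pparg, which encodes the nuclear receptor that directs adipogenesis, read 1916 and 2239 at 4 h (0.22, adjusted p = 0.618), then 1773 on both controls and 544 with tunicamycin at 8 h. Cebpa, its partner, read 1019 and 901 at 4 h (-0.18, adjusted p = 0.862), and Irs1, the insulin receptor substrate, 1109 and 947 (-0.23, adjusted p = 0.648). The effect on Pparg fell by 1.92 on the log2 scale from 4 h to 8 h (adjusted p = 0.0164) and that on Irs1 by 1.99 (adjusted p = 0.018). Adipoq, the adiponectin gene, read 8894 and 9240 at 4 h (0.06). The 23 tested adipogenic transcription factors had a median of 0.30 at 4 h with none past the test, and 13 had fallen at 8 h, against 0.0366% and 8.95% of all tested genes that fell at these times. Interferon-inducible genes had a median of 0.09 at 4 h, with none of 21 past the test, and 17 had fallen at 12 h, where 10.9% of all tested genes had.

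**Figure D4:**
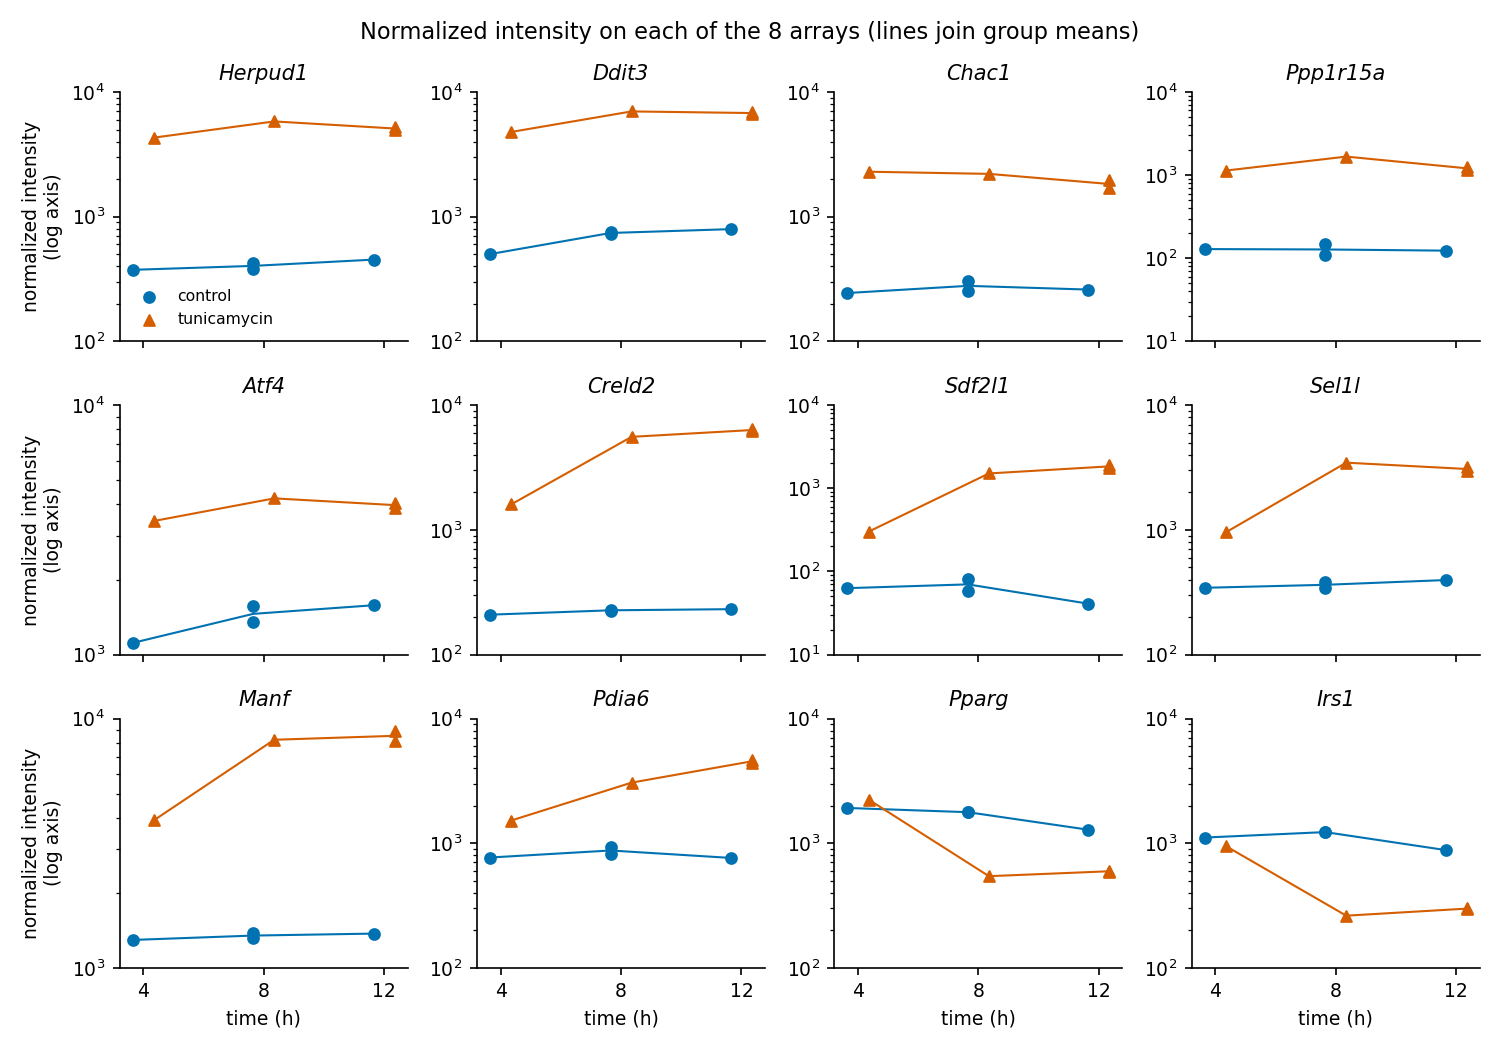
Normalized intensity (log axis) of 12 genes on each of the 8 arrays against time, with controls as blue circles, tunicamycin as orange triangles, and lines joining group means. Herpud1, Ddit3, Chac1, Ppp1r15a and Atf4 are already far above the controls at 4 h, Creld2, Sdf2l1, Sel1l, Manf and Pdia6 are higher at 8 h and 12 h than at 4 h with tunicamycin, and Pparg and Irs1 separate from the controls after 4 h.

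Whether the 4 h effect differed from the later ones was tested with limma's F test over the effects at the 3 times, which share no array. The effect differed in 188 genes (1.72%), 8 of them among the 43 called at 4 h. Taken singly, the difference from 4 h passed at 8 h in 65 genes (0.595%), with 4 of the 39 that rose, and at 12 h in 320 (2.93%), with 9 of the 39. Of the 188, 178 had an effect of larger size at 12 h than at 4 h, as had 7128 of all 10916 tested genes. In 7 of the 188 the effect at 4 h exceeded both later ones. Herpud1 and several PERK-branch genes had effects at 4 h near their size at 12 h. The effect at 12 h minus that at 4 h was -0.03 (SE 0.196) for Herpud1, -0.16 (SE 0.174) for Ddit3, -0.42 (SE 0.25) for Chac1, 0.15 (SE 0.296) for Ppp1r15a and -0.29 (SE 0.193) for Atf4, and none passed (adjusted p 0.432 to 0.959). For Trib3 it was 0.38 (SE 0.204), which did not pass either. From 4 h to 8 h the effect changed by 1.02 (SE 0.204) for Trib3, 0.59 for Ppp1r15a, 0.33 for Herpud1, -0.01 for Ddit3, -0.24 for Chac1 and -0.08 for Atf4. None of these passed. That does not show the effects to be equal. Atf3 grew by 1.62 from 4 h to 12 h (SE 0.308, adjusted p = 0.0346), though its F test did not pass (adjusted p = 0.0725).

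For some chaperones and for the ERAD gene Sel1l the effect was larger at 12 h than at 4 h. The effect on Sdf2l1 grew by 3.18 from 4 h to 12 h (SE 0.327, adjusted p = 0.00927), where the tunicamycin arrays read 1779 and 1900 and the control 41.0. That on Creld2 grew by 1.83 (SE 0.188, adjusted p = 0.00927), with 6261 and 6395 on the 12 h tunicamycin arrays. Pdia6 grew by 1.59 (SE 0.201, adjusted p = 0.013), Sel1l by 1.48 (SE 0.207, adjusted p = 0.0135), Slc20a1 by 1.20 (SE 0.245, adjusted p = 0.0425) and Manf by 1.04 (SE 0.173, adjusted p = 0.0224). The growth for Hspa5 was 0.42 (SE 0.16) and did not pass (adjusted p = 0.226). In 10 of the 35 tested chaperones and folding enzymes the effect differed between times, against 1.72% of all tested genes. It also differed in 7 of the 52 genes of translocation and transport. Whether the PERK-branch genes differed from the chaperones in their time course was not tested.

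**Figure D5:**
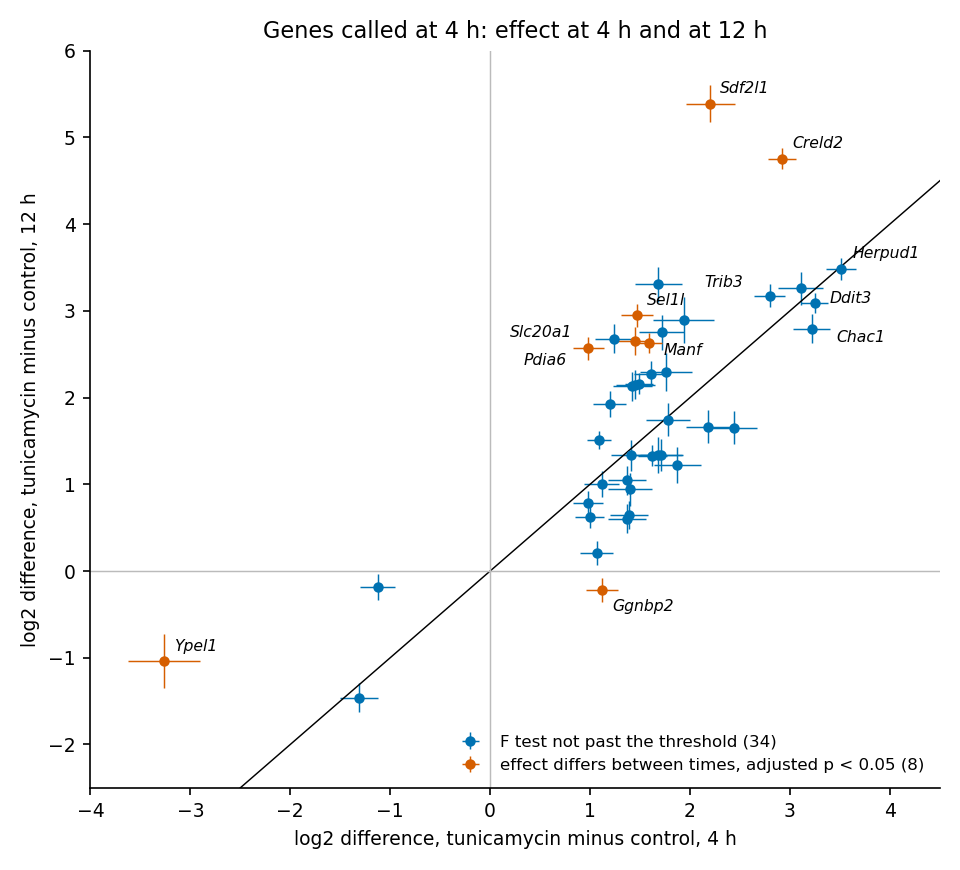
Log2 difference of tunicamycin from control at 4 h (horizontal axis) and 12 h (vertical axis) for 42 of the 43 genes called at 4 h, without Ercc2, with bars of 1 SE and the line of equal effects. Orange marks the 8 genes whose effect differed between times, of which Sdf2l1, Creld2, Sel1l, Manf, Pdia6 and Slc20a1 lie above the line and Ggnbp2 lies below it at 1.12 and -0.22, while Ypel1 was lower by more at 4 h.

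Other genes whose effect differed between times had not passed at 4 h. Mreg, which encodes a melanosome and membrane traffic protein, read 14.2 and 17.8 at 4 h and 3.75 against 214 and 218 at 12 h. Bcat1, the cytosolic branched-chain aminotransferase, read 88.9 and 159 at 4 h (0.82, adjusted p = 0.256) and 67.0 against 757 and 1005 at 12 h. The interferon-inducible genes Ifit1 and Ifit3 read 902 and 974, and 995 and 1060, at 4 h. At 12 h they read 854 against 113 and 114, and 1088 against 95.8 and 109. Pnpla3, a lipase-like gene of lipogenic cells, read 263 and 269 at 4 h and 388 against 23.4 and 54.9 at 12 h. The only gene that rose at 4 h and had a smaller effect later by this test was Ggnbp2, at 1.12 at 4 h, 0.48 at 8 h and -0.22 at 12 h, a difference of -1.34 (SE 0.214, adjusted p = 0.0192).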

How the data were processed

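RNA from 8 cultures was measured on Affymetrix arrays. The authors deposited 1 intensity for each probe set, as linear values with no unit named in the files; their software and scaling are not stated in the labels. The authors' deposited tables give a ratio, its log10 and a p-value per probe set, with no direction stated. A ratio above 1 was read as higher with tunicamycin, which is likely because the log ratio at 4 h rose with the difference computed here (rho 0.828 across tested genes). Another 6 columns of those tables match no sample and were not used. Which probe sets have a gene comes from the platform annotation, with 34958 of 45101 naming 1 gene, and from RefSeq names (GRCm38.p6, 34754 matched).

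Values were quantile normalized, set to 0 where negative, and taken as log2(value + 2.96), the 10th percentile of positive deposited values. On each array 19.2% to 20.9% of values were 0 or negative. Array medians ran from 9.56 to 22.0 and means from 114 to 257 before normalization, and the number of arrays limits the precision. For 18194 genes the probe set with the highest mean stood for the gene, and the 10916 at or above the 40th percentile (15.3 units) were tested. limma 3.58.1 in R 4.3.3 fitted 6 group means over 8 arrays, with 2 residual and 6.37 prior degrees of freedom, and eBayes used an intensity trend. Tests are two-sided, and the threshold on the adjusted p was 0.05. The fit was tested on simulated data in which each gene had the same spread on every array. That test could not examine whether the lone 4 h arrays vary like the groups with replicates. No 2 arrays were identical.

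Genes were named as the 15 higher and 10 lower called genes with the largest differences, at 50 units or more on the brighter array and above the pseudocount on the other, then up to 3 called members per list, 30 key genes, and genes whose effect differed most between times. The members and lists were chosen with earlier results of these data known. Alternatives changed scaling, pseudocount, filter, probe set choice, variance trend and arrays used. Plots were drawn with matplotlib 3.10.9 in Python 3.11.15.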

Additional observations from a re-analysis of the deposited data

Results flagged for a closer look

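The limma F test found 188 genes whose tunicamycin effect differed between 4 h, 8 h and 12 h, and the genes named from them are given by the effect at 12 h minus that at 4 h on the log2 scale. The effect grew by 3.18 for Sdf2l1, 1.83 for Creld2, 1.59 for Pdia6, 1.48 for Sel1l, 1.20 for Slc20a1, 4.76 for Mreg and 2.83 for Bcat1. It went from -0.79 to 2.89 for 1810010H24Rik and from -0.80 to 2.11 for Edn3, and neither had passed at 4 h. Their differences were 3.68 and 2.91. The difference was -1.34 for Ggnbp2, -2.99 for Ifit1, -3.47 for Ifit3 and -3.36 for Pnpla3, whose effects were above 0 at 4 h and below 0 at 12 h. Ypel1 was lower by less at 12 h, with a difference of 2.23, and it read 7.63 on the 4 h tunicamycin array. For 3 further genes the fitted value rests on an array listed at 0 and is no fold: 4.09 for Prelid3a (0 on the 12 h control), and -4.17 for Myo18a and -4.21 for Wfikkn1 (both 0 on the 4 h control). Edn3 read 60.2 on the control and 33.4 on the tunicamycin array at 4 h.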

How the results depend on the processing

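All 39 genes that rose at 4 h stayed above 0 under the 14 alternatives, of which only the scalings and the averaging of probe sets could change that sign. The number called depended on scaling, filter, probe set choice and the estimate of the spread, and the cause was not tested. The count of genes higher was 1 with the deposited scaling kept (where the median of all tested genes was -0.51, and which is not among the 39), 77 without a filter, 77 with a stricter filter at the 60th percentile, 11 with a gene's probe sets averaged, 0 without limma's intensity trend (650 at an unadjusted p under 0.05) and 20 on the 4 h and 8 h arrays only. It was 21 to 25 when 1 replicate was left out (control_8h replicate 1 or 2, or tunicamycin_12h replicate 1 or 2). The count of genes lower was 2 with each array divided by its mean, 56 without a filter, 8 with the stricter filter, 0 with probe sets averaged (476 unadjusted), 0 without the trend (361), 1 without the 12 h arrays, and 1 to 2 without a replicate. Without a filter 6 of the 39 were still called, with the stricter filter all 39, without the 12 h arrays 18, and without a replicate 19 to 24. With the deposited scaling 48 genes were at least 2-fold higher and 979 lower, and with the mean of probe sets 247 were lower. The effect differed between times in 0 genes with the deposited scaling (87 at an unadjusted p under 0.05), 68 with median centring, 316 with the stricter filter, 0 with probe sets averaged (1470), 0 without the trend (1484), and 7 to 104 without a replicate. Herpud1, Ddit3, Creld2 and Trib3 were called in 12 of the 14, and 10 of the 39 in 4 or fewer, Pdia6, Slc38a2 and Zfp9 in 3. Cdc42ep2 was called in 3. Dnajb9 and Hsp90b1, not called above, were called under some alternatives. In alternatives added after the data were seen, all 29 list medians shifted with the deposited scaling, and relative to all tested genes the chaperone list stayed between 0.43 and 0.44 and the immediate-early list at 0.56 across the scalings. No paired analysis was possible because the 4 h groups share only 1 replicate number.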

Other observations

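Several lists had no member past the test at 4 h. Ribosome biogenesis and nucleolar genes had 23 of 30 above 0, where 53.4% of all tested genes were, and a median of 0.27. At 8 h 14 of them had risen, where 9.42% of all tested genes had. Genes of the respiratory chain had 24 of 33 below 0 at 4 h, with a median of -0.07. Cytosolic heat shock genes, which answer misfolding in the cytosol, had 14 of 20 below 0 with a median of -0.06. Of all 10916 tested genes, 5086 were below 0. Cholesterol synthesis, fatty acid synthesis, cell cycle and apoptosis lists had medians from -0.05 to 0.03.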
